A study of Homo sapiens with 2 samples.

Results

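The genes described here are 9 members of the insulin-like growth factor (IGF) pathway, out of 20037 protein-coding genes on chromosomes 1 to 22, X and Y. They are the ligands IGF1 and IGF2, the receptors IGF1R and INSR, the receptor adaptors IRS1 and IRS2, and the binding proteins IGFBP2, IGFBP3 and IGFBP5. The 9 were given by name, and their sites are the intervals called inside the gene or within 200 kb of either end, a stretch called the window below. A site is a gene-end site when its summit, the base with most reads, lies within 1 kb of either end of the member, and distal otherwise. The windows held 34 distinct intervals with siNEG, of 16284 in that library, and 9 with siEWS-FLI, of 6370.

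The data are CUT&Tag profiles of EWS-FLI binding, in which an antibody tethers a transposase that cuts and tags the DNA nearby. TC32, an established Ewing sarcoma cell line, was given siEWS-FLI in 1 library and siNEG in the other, and the labels spell out neither siNEG nor the antibody. With 1 library per group no difference has a replicate check, so no test was made. All error ranges are 95% intervals for counting error, and reads copied by PCR can make them too narrow. Values are summit pileups, the number of reads over the summit base, recovered from the deposited fold and p-value and not scaled between libraries. Read totals were replaced by the background that the peak caller used, 0.348 reads over each base for siNEG and 0.239 for siEWS-FLI. Their ratio of 0.687 is taken over all reads, mitochondrial ones included, and a ratio for nuclear reads alone was not measured here. Of 8 loci known in Ewing sarcoma, 5 had a siNEG gene-end interval, against 0 of 12 hepatocyte, blood and epithelial marker genes and 34.1% of all genes. Within 200 kb all 8 and 11 of the 12 had a siNEG interval, with a median of 4 in both sets. Peak calls show where reads pile up and are no measure of expression or of cell identity.

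IGF1 and IGF2 are secreted ligands that bind IGF1R, a receptor tyrosine kinase, and IGF2 also binds a form of the insulin receptor INSR. The activated receptors phosphorylate IRS1 and IRS2, which recruit phosphoinositide 3-kinase and lead to AKT and mTOR, while the IGFBPs hold the ligands outside the cell. In Ewing sarcoma the pathway is known for autocrine IGF signalling, for antibodies against IGF1R tried in patients, and for reports that the fusion of EWSR1 and FLI1 raises IGF1 and represses IGFBP3. FLI1 is an ETS factor, and ETS factors bind DNA around the core GGAA; the fusion also binds GGAA repeats.

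The siNEG sites of these genes did not stand apart from the library in median number or height, and no gene-end site was called at any of the 9 with siEWS-FLI. The median siNEG pileup was 8 reads over the 34 intervals and 8 over the whole list. All 9 windows held a siNEG interval, as did 90.9% of all protein-coding genes, and 7 held a siEWS-FLI interval, against 74.0%. Only IGF1R, INSR and IRS2 had a siNEG gene-end interval, 3 of 9 against 34.1% of all genes, and 0 of 9 had a siEWS-FLI gene-end interval, against 12.3%. With 9 genes neither gene-end count can be set apart from genes at large. The nearest summits outside the 1 kb limit were 1.39 kb from IGFBP5 with siEWS-FLI and 2.40 kb from IGF2 with siNEG; the farthest inside it was 0.169 kb from IGF1R.

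**Figure D1:**
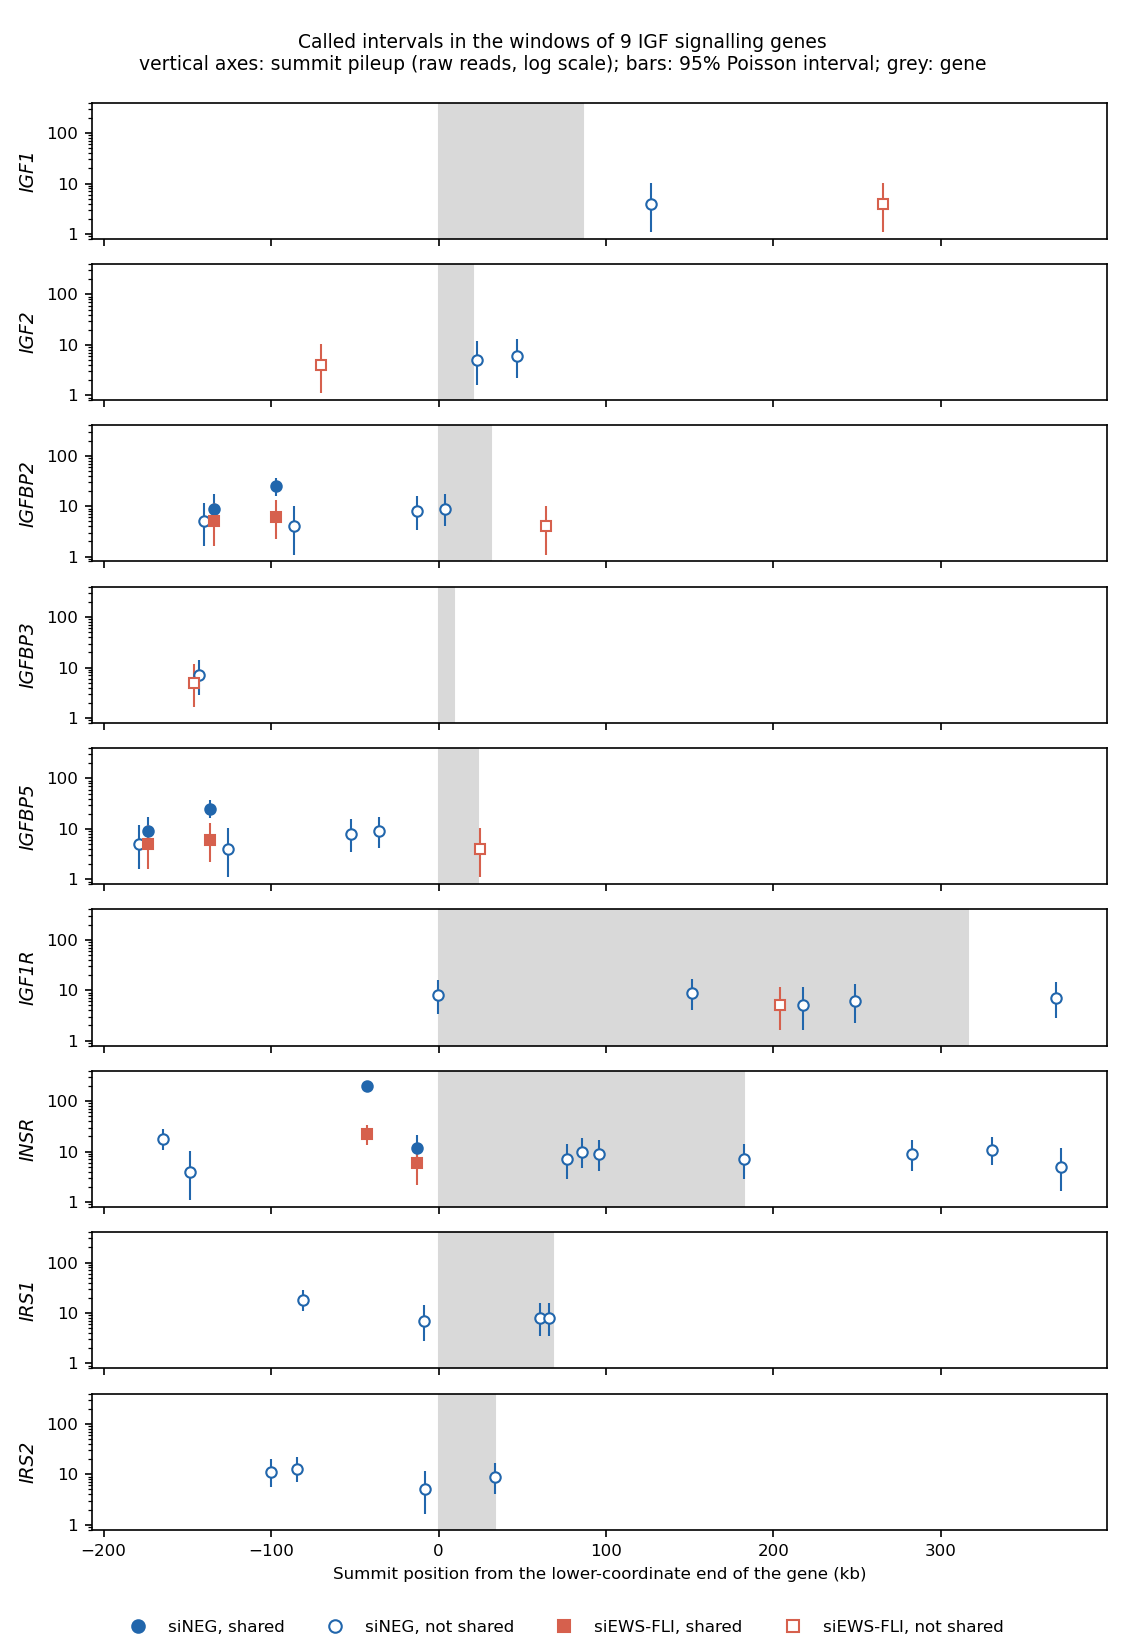
Summit pileup (raw reads, log scale, with 95% Poisson intervals) of every called interval against its position from the lower-coordinate end of each gene in kb; grey marks the gene, filled points are shared between the libraries and open points are not. Filled points occur in the INSR, IGFBP2 and IGFBP5 windows only, and IGFBP2 and IGFBP5 show the same intervals.

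The number of intervals differed between members. With siNEG the INSR window held 11, those of IGFBP2 and IGFBP5 6 each, IGF1R 5, IRS1 4, IRS2 4, IGF2 2, IGF1 1 and IGFBP3 1. The median member had 4, as did the median of all protein-coding genes, whose quartiles were 2 and 7. INSR had more siNEG intervals than 87.6% of all genes, and IGF1 and IGFBP3 had more than 9.10%. Longer genes have longer windows, so the counts were also taken per 100 kb: INSR had 1.89, IGFBP5 1.42 and IGFBP2 1.39, IGF1R 0.698, IGFBP3 0.244 and IGF1 0.206, against a median of 0.941 over all genes. With siEWS-FLI the windows of IGFBP2 and IGFBP5 held 3 each, INSR 2, and IGF1, IGF2, IGF1R and IGFBP3 1 each. IRS1 and IRS2 had none. IGFBP2 and IGFBP5 lie 7.67 kb apart on chromosome 2, and all their 6 siNEG and 3 siEWS-FLI intervals are the same ones, counted once in the totals.

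**Figure D2:**
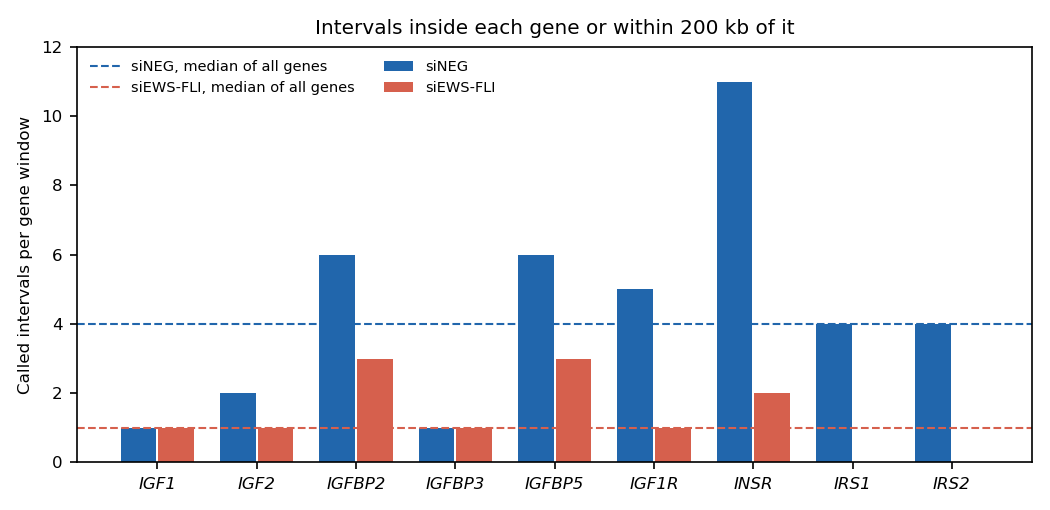
Number of called intervals inside each gene or within 200 kb of it, by library, with dashed lines at the median over all protein-coding genes (4 with siNEG and 1 with siEWS-FLI). INSR has the tallest siNEG bar at 11, and IRS1 and IRS2 have no siEWS-FLI bar.

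The receptors and IRS2 carried weak siNEG sites directly before the transcription start. At IGF1R, on chromosome 15, the interval chr15:98648242-98648441 had 8 reads (3.45 to 15.8) with siNEG, its summit 169 bases before the start and inside the long non-coding RNA gene IRAIN. At INSR, on chromosome 19, chr19:7294446-7294777 had 7 reads (2.81 to 14.4), 131 bases before the start. At IRS2, on chromosome 13, chr13:109786541-109786845 had 9 reads (4.12 to 17.1), 95 bases before the start and 0.406 kb from the end of LOC124903211. The counting intervals of the 3 overlap widely, so their heights cannot be ordered. None was called with siEWS-FLI. A siEWS-FLI pileup of up to 5 reads at IGF1R, and of up to 4 at INSR and at IRS2, would have missed the threshold if its local background was that of siNEG. If it was the siEWS-FLI library background, up to 3 reads would have. An uncalled site thus allows a siEWS-FLI to siNEG ratio of up to 0.625 at IGF1R, 0.571 at INSR and 0.444 at IRS2. The first of these is near the background ratio of 0.687, and with 7 to 9 siNEG reads a difference beyond depth was not detectable.

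These are the sequences under those summits, the 250 bases before the start from RefSeq (GRCh38.p14), 5′ to 3′ on the gene's strand, with every GGAA or its complement TTCC in capitals. IGF1R is on the plus strand (chr15:98648289-98648538), and INSR (chr19:7294415-7294664) and IRS2 (chr13:109786584-109786833) are on the minus strand.
IGF1R: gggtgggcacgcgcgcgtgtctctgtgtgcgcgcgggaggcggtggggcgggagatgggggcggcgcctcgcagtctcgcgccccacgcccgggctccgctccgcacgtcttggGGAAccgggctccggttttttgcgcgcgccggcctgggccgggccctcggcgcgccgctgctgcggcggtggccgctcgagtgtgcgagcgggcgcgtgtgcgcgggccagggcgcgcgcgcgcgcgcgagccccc
INSR: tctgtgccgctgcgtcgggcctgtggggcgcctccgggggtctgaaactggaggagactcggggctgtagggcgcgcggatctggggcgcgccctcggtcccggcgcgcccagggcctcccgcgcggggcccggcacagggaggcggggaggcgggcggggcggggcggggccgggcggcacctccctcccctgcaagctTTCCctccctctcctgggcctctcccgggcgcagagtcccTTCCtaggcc
IRS2: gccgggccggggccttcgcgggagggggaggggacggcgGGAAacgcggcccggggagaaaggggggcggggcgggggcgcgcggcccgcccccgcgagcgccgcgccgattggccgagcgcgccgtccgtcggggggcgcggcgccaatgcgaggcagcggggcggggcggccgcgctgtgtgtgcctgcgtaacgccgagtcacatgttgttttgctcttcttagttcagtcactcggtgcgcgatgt
All 3 are rich in G and C, at 79.7% for IGF1R, 78.3% for INSR and 75.7% for IRS2 over the full window of 250 bases before and 50 after the start, against a median of 66.0% in the 4140 promoter windows that hold a siNEG summit. Each stretch above holds few GGAA cores, 1 in IGF1R, 2 in INSR and 1 in IRS2. The full windows hold 1, 3 and 1, against a median of 4 in windows with a siNEG summit. The closest core in the full window lay 33 bases from the summit at IGF1R, 81 at INSR and 113 at IRS2.

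A search of the same windows on both strands found neither the longer ETS sequence CCGGAAGT nor the tandem GGAAGGAA in any of the 8 members that matched the promoter table. IGF2 is the member without a match. Over all 22199 protein-coding promoter windows, 95.1% held GGAA, 5.34% held CCGGAAGT and 3.70% held GGAAGGAA; CCGGAAGT and GGAAGGAA both contain the GGAA core. Among the 4140 windows with a siNEG summit the shares were 97.0%, 18.5% and 3.26%. So CCGGAAGT, rare in promoters at large, was more frequent where siNEG summits lay, and the 3 promoters printed above are among the windows without it. Of all genes with a listed promoter, 24.1% had a siNEG summit inside a promoter window, and 3 of the 8 matched members did; for siEWS-FLI the share was 7.45%, and 0 of 8.

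The other siNEG sites of IGF1R were of like height to its gene-end site. The gene had 3 sites inside the gene, with 9 reads (4.12 to 17.1), 5 and 6, at 151 kb, 98.5 kb and 67.2 kb from the nearer end of the gene. The remaining site, of 7 reads, lay 52.6 kb past the gene inside LUNAR1, a long non-coding RNA gene. With siEWS-FLI the window had 1 interval, of 5 reads (1.62 to 11.7), inside the gene at chr15:98852564-98852763 and 13.4 kb from the nearest siNEG summit. The libraries therefore placed no call at the same position of IGF1R.

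INSR had 3 sites inside the gene, of 7, 10 and 9 siNEG reads, all between 77.0 and 86.4 kb from its nearer end and none called with siEWS-FLI. Its flanks held the tallest siNEG-only site of both receptors, chr19:6947769-6948138, 164 kb away and nearest to ADGRE1, an adhesion receptor gene, with 18 reads (10.7 to 28.4). With siEWS-FLI at most 5 reads could have gone without a call there, taking the local background of siNEG, a ratio of 0.278 (0.0806 to 0.776). This is the lowest such ratio of the 30 siNEG-only intervals near the 9 genes. On that assumption its counting interval takes in the background ratio of 0.687. At the siEWS-FLI library background at most 3 reads could have gone without a call, a lower ratio. Its counting interval was not computed, so whether 0.687 lies inside it is not known. On the other flank, sites 101 kb and 148 kb away had 9 and 11 reads. Further sites, of 4 reads inside the pseudogene ADGRE4P and 5 inside PEX11G, lay 148 kb and 189 kb away. The other two of the 11, with 199 and 12 reads, were called in both libraries and are described with the shared sites.

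The adaptor IRS1, on chromosome 2, had no gene-end site and 2 sites inside the gene. Both had 8 siNEG reads (3.45 to 15.8), and they lay 2.50 kb and 8.02 kb from the end where transcription starts. Its tallest site, chr2:226650081-226650611, was intergenic, 81.1 kb away, with 18 reads (10.7 to 28.4). The remaining site, 8.95 kb away, had 7 reads. No siEWS-FLI interval lay in the window. Taking the local background of siNEG, at most 7 siEWS-FLI reads could have gone without a call at the tallest site. That is a ratio of 0.389 (0.137 to 0.976). At the siEWS-FLI library background at most 3 reads could have, a lower ratio.

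IRS2 resembled IRS1 in having no siEWS-FLI interval at all. Besides the gene-end site it had 3 intergenic siNEG sites, of 13 reads (6.92 to 22.2) 84.7 kb away, 11 reads (5.49 to 19.7) 99.9 kb away and 5 reads 7.96 kb away. At the tallest, chr13:109667861-109668182, up to 4 siEWS-FLI reads could have gone without a call, taking the local background of siNEG. That is a ratio of 0.308 (0.0731 to 0.996). At the siEWS-FLI library background up to 3 reads could have, a lower ratio. The nearest siEWS-FLI summit was 244 kb from this site.

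The ligand genes had sites of few reads. IGF1, on chromosome 12, had 1 siNEG interval of 4 reads (1.09 to 10.2) 40.8 kb away and 1 siEWS-FLI interval of 4 reads (1.09 to 10.2) 179.7 kb away, both inside LINC02456, a long non-coding RNA gene. These are the lowest pileups that either list holds, and the intervals were 200 bases wide, the narrowest listed. IGF2, on chromosome 11, had siNEG sites of 5 reads (1.62 to 11.7) 2.40 kb away, inside the read-through gene INS-IGF2, and 6 reads (2.20 to 13.1) 26.2 kb away, nearest to TH, which encodes tyrosine hydroxylase. Its siEWS-FLI interval of 4 reads lay 70.2 kb away on the opposite side of the gene. Taking the local background of siNEG, a siEWS-FLI pileup of at least 0.750 of the siNEG one could have stayed uncalled at each of the 3 siNEG sites. At the siEWS-FLI library background up to 3 reads could have, against 4, 5 and 6 siNEG reads. With so few reads loss was not detectable at either ligand.

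Of the binding proteins, IGFBP3 had nothing near it. The closest siNEG summit, of 7 reads (2.81 to 14.4), lay 143 kb from the gene on chromosome 7, inside the pseudogene GTF2IP13. The closest siEWS-FLI summit, of 5 reads (1.62 to 11.7), lay 3.14 kb from it, inside the pseudogene SEPTIN7P2. The promoter stretches of IGFBP3 (chr7:45921273-45921522, minus strand) and of the upstream start of IGF1 (chr12:102481748-102481997, minus strand) are shown for comparison with those above, as promoters of genes reported to respond to the fusion that carry no summit in either list.
IGFBP3: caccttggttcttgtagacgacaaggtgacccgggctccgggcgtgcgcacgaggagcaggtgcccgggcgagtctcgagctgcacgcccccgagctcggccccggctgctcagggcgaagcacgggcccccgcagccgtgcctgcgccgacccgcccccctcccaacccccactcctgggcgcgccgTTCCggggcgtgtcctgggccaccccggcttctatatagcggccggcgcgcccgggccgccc
IGF1: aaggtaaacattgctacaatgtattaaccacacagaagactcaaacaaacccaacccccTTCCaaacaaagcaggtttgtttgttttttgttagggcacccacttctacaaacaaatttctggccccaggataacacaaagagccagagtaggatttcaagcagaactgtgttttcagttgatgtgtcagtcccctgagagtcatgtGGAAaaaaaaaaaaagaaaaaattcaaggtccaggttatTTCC
The IGFBP3 stretch holds 1 core and the IGF1 stretch 3, and their full windows hold 2 and 5. The full windows of the promoters above with a siNEG summit hold 1 to 3, so IGFBP3 lies inside that range and IGF1 above it. So few promoters allow no contrast by number of cores. In base composition the IGFBP3 and IGF1 promoters differ from each other. G and C made up 74.7% of the full IGFBP3 window and 42.3% of the IGF1 window, against a median of 62.3% over all promoter windows.

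IGFBP2 and IGFBP5, neighbours on chromosome 2, had no site between them. One siNEG site lay inside IGFBP2, 3.69 kb from its end, with 9 siNEG reads (4.12 to 17.1). A second, 13.0 kb from IGFBP2, had 8 reads. Beyond them towards RPL37A lay 4 more, of 4, 25, 9 and 5 reads. IGFBP5 itself contained no summit. A siEWS-FLI interval of 4 reads (1.09 to 10.2) lay 1.39 kb before the start of IGFBP5 inside IGFBP-AS1, a long non-coding RNA gene, with the nearest siNEG summit 60.4 kb away. Up to 3 siNEG reads could have gone without a call there, so this single call does not show more signal with siEWS-FLI.

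The sites shared between the libraries were all distal, and their share was near that of the library. Of the 34 siNEG intervals 4 overlapped a siEWS-FLI interval (11.8%, Wilson interval 4.67 to 26.6), against 15.6% of all siNEG intervals. As a share of distal sites they were 4 of 31 (12.9%, 5.13 to 28.9). These 31 include the 2 sites at the ends of other genes, both shared. Away from all gene ends, 0 of 9 sites inside members were shared (upper bound 29.9%). Elsewhere 2 of 20 were (Wilson interval 2.79 to 30.1%). Across the library 8.47% of siNEG intervals away from gene ends were shared. Of the 3 gene-end intervals 0 were shared (upper bound 56.1%), against 28.2% of all siNEG intervals within 1 kb of a gene end. The shares of all 34, of the members' own gene-end sites and of the sites inside members or elsewhere lay within counting error of their backgrounds. The number of sites allows no finer statement, also for the 2 at the ends of other genes. By window, 3 of the 9 genes had a shared interval, against 51.9% of all genes. Of the 9 siEWS-FLI intervals 4 were shared (44.4%, 18.9 to 73.3), against 41.1% of that whole list. The narrowest width of 200 bases was that of 6 of these 9, against 71.4% of the siEWS-FLI list, and of 13 of the 34 siNEG intervals, against 31.4%.

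The tallest site in any of the windows belonged to a neighbour. The interval chr19:7069200-7069928 in the INSR window lies 0.218 kb from the end of ZNF557, a zinc finger gene, and 42.8 kb from INSR. Its pileup was 199 reads (172 to 229) in the siNEG library and 22 (13.8 to 33.3) in the siEWS-FLI library, a ratio of 0.111 (0.0677 to 0.172). Across all shared intervals with 100 or more siNEG reads the median ratio was 0.110, so this site was like others of its height. It alone holds 199 of the 487 siNEG reads summed over the 34 summits.

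The other shared sites were smaller. In the same window chr19:7098820-7099579, inside the long non-coding RNA gene LOC124904625 and 13.1 kb from INSR, had 12 reads (6.20 to 21.0) and 6 (2.20 to 13.1), a ratio of 0.500 (0.154 to 1.44). In the window of IGFBP2 and IGFBP5 the intergenic interval chr2:216535563-216536024, 97.0 kb from IGFBP2, had 25 siNEG reads (16.2 to 36.9) and 6 siEWS-FLI reads (2.20 to 13.1). Its ratio was 0.240 (0.0805 to 0.599). The summits of the libraries were 10 bases apart. At the end of RPL37A, a ribosomal protein gene 134 kb from IGFBP2, chr2:216498626-216499010 had 9 reads (4.12 to 17.1) and 5 (1.62 to 11.7), a ratio of 0.556 (0.146 to 1.85). All 4 shared sites had fewer siEWS-FLI than siNEG reads, in counts not scaled between libraries. The background ratio of 0.687 lay inside the counting intervals of the LOC124904625 and RPL37A sites. It lay above those of the ZNF557 site and the intergenic chromosome 2 site. Across all shared intervals the median ratio was 0.267 at 20 to 49 siNEG reads, 0.500 at 10 to 19 and 0.857 below 10. The ratios of the intergenic chromosome 2 site and of the LOC124904625 site were thus ordinary for their height, and the counting interval at RPL37A takes in the median for its height.

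**Figure D3:**
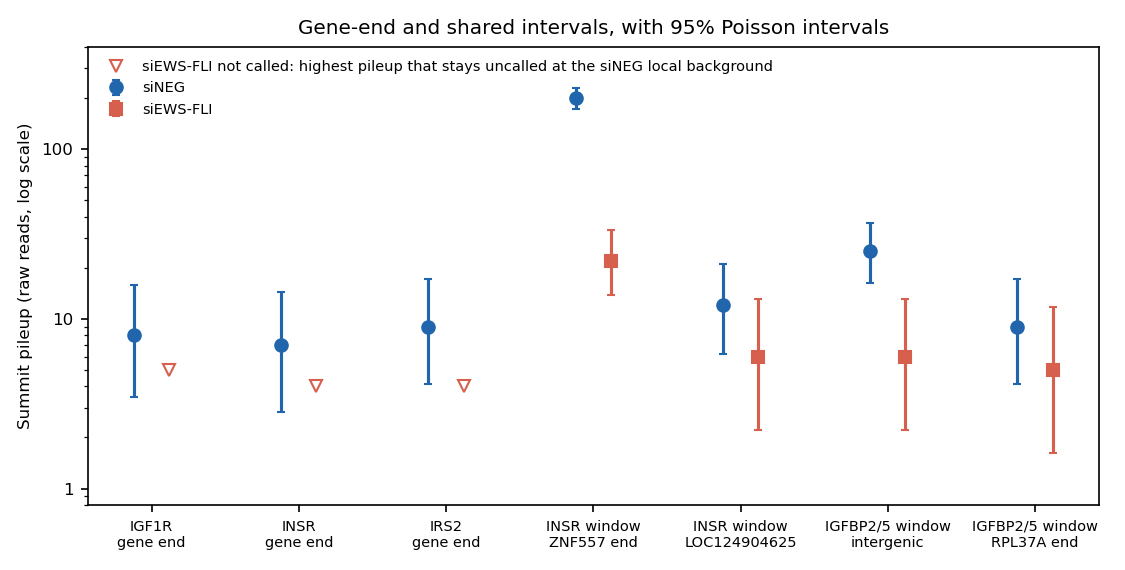
Summit pileup (raw reads, log scale) with 95% Poisson intervals at the 3 siNEG gene-end sites and the 4 shared sites; open triangles mark the highest siEWS-FLI pileup that would stay uncalled at the siNEG local background. The triangles at IGF1R, INSR and IRS2 fall at 5, 4 and 4 reads, inside the counting intervals of the siNEG values at IGF1R and INSR and just under the lower bound of 4.12 at IRS2.

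Taller siNEG intervals were more often called with siEWS-FLI too, across the library and in these windows. Of the 34 member intervals 25 had fewer than 10 reads. The 10 with 4 to 6 reads had 0 shared, against 2.07% of all siNEG intervals of that height, and the 15 with 7 to 9 reads had 1 shared, against 6.03%. At 10 to 19 reads 1 of 7 was shared, against 16.7%. The single interval of 20 to 49 reads was shared, against 41.4%, as was the single one of 100 or more, against 92.5%. With so few intervals no height can be set apart from the library as a whole. At gene ends, where IGF1R, INSR and IRS2 had 7 to 9 reads, 9.07% of all siNEG intervals of that height were shared. Taking the local background of siNEG, 7 of the 30 siNEG-only intervals could hold a siEWS-FLI pileup at or above 0.687 of the siNEG one without being called. At the siEWS-FLI library background, where at most 3 reads stay uncalled, fewer could.

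Ranked by the tallest siNEG site in the window, INSR came first with 199 reads, at the ZNF557 end, followed by IGFBP2 and IGFBP5 with their common site of 25. Then came IRS1 (18), IRS2 (13), IGF1R (9), IGFBP3 (7), IGF2 (6) and IGF1 (4). INSR differed from the next gene beyond counting error, and no other pair of neighbours in this order did. With siEWS-FLI the tallest sites were INSR at 22 reads, IGFBP2 and IGFBP5 at 6, IGF1R and IGFBP3 at 5, and IGF1 and IGF2 at 4.

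Gene-end sites were called at genes of receptors and of intracellular proteins, and at no gene of a secreted protein. Among 48 other pathway genes, 27 had a siNEG gene-end interval (56.2%, against 34.1% of all genes), 11 a siEWS-FLI gene-end interval (against 12.3%), and 10 a shared one (against 10.7%). Taken with the 9 members, 0 of 15 genes of secreted proteins had a siNEG gene-end interval: IGF1, IGF2 and INS, 7 binding-protein genes, IGFALS, PAPPA, PAPPA2, STC1 and STC2. Of the receptors 3 of 4 had one, and of the adaptors 4 of 8. The kinases and regulators from phosphoinositide 3-kinase to mTOR had one in 15 of 20 cases and those from RAS to ERK in 5 of 6. The grouping by role was made after the values were seen and was not tested.

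**Figure D4:**
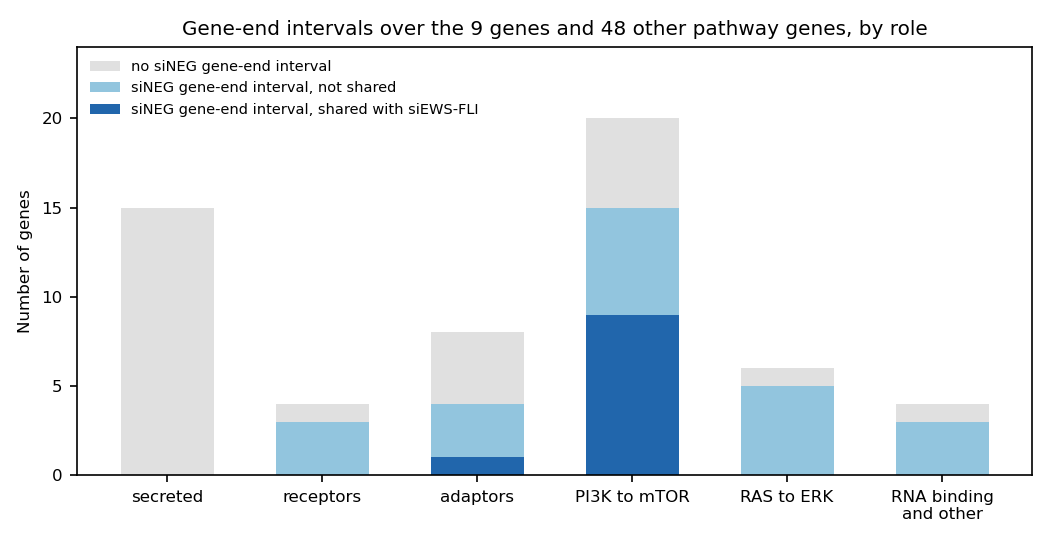
Number of genes in each role over the 9 genes and 48 other pathway genes, coloured by whether a siNEG gene-end interval was called and shared with siEWS-FLI. The secreted group has 0 of 15 with a siNEG gene-end interval, and 9 of the 10 shared ones fall from phosphoinositide 3-kinase to mTOR.

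Shared gene-end sites downstream were several times taller than those of the 9 members. SHC1, a receptor adaptor, had 235 siNEG reads (206 to 267) and 35 siEWS-FLI reads (24.4 to 48.7), at a site that is also the end of CKS1B. TSC2, which restrains mTOR, had 127 (106 to 151) and 14 (7.65 to 23.5), also at the end of NTHL1. MTOR, the kinase itself, had 100 (81.4 to 122) and 11 (5.49 to 19.7). These 3 stood at ratios of 0.149, 0.110 and 0.110. AKT2 had 75 and 12 reads. PIK3R2, a regulatory subunit of phosphoinositide 3-kinase, had 54 and 15 at a site it has in common with MAST3, and the catalytic subunit PIK3CA had 49 and 10. PDPK1, which activates AKT, had 43 and 7 reads, and GSK3B, an AKT substrate, 22 and 8. PIK3R1 had 15 and 4 reads. RHEB, the GTPase that switches mTOR on, had 15 (8.40 to 24.7) and 11 (5.49 to 19.7), the highest ratio of the 10 at 0.733.

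Among the 48 other pathway genes, the tallest gene-end sites called with siNEG alone were those of IGF2BP1, TSC1 and HRAS. IGF2BP1 encodes a protein that binds IGF2 mRNA and had 34 reads (23.5 to 47.5). TSC1, the partner of TSC2, had 20 reads (12.2 to 30.9) at a site also within 1 kb of GFI1B, and HRAS had 18 (10.7 to 28.4). IGF2R, which clears IGF2 from outside the cell, had 9 (4.12 to 17.1), similar to the sites of IGF1R, INSR and IRS2.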

How the data were processed

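CUT&Tag peak lists were analysed, 1 list per library. Per the submitters' processing notes, the build was hg38 and the tools included MACS2 2.2.9.1, Bowtie2 2.4.5 and Trim Galore 0.6.6, with no roles stated. Whether a control library was used and how duplicates were treated is not given in the sources used here. PCR ran for 14 and then 20 cycles, per the labels' protocols. The deposited columns used were the fold enrichment at the summit, a linear ratio over local background, and the p-value and q-value, each as −log10; the deposited summit offset, a column of another kind, gave positions.

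Lines sharing an interval were merged, keeping the highest −log10 q. Pileups were solved as the whole number that fits fold, (pileup + 1) over (background + 1), and the Poisson upper tail, with a tolerance of 0.001 in log10 p, growing in proportion above 10; this succeeded for 16282 of 16284 siNEG and 6368 of 6370 siEWS-FLI intervals, and was checked on simulated data. Overlap of at least 1 base counted as shared. The highest uncalled pileup is the largest whose p misses the weakest one listed (−log10 p 4.49 with siEWS-FLI and 3.96 with siNEG). Read totals are not given, so depth is known only through the background. Gene positions and promoters came from RefSeq GRCh38.p14, whose chromosomes have the coordinates of hg38; a file of genome sequence was not used here, so distal sites were not searched for motifs. Shares carry Wilson, pileups exact Poisson and ratios conditional exact binomial intervals (95%), with Python 3.11.15 and SciPy 1.17.1.

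The 9 genes, the lists, the markers and the settings were chosen with earlier results of these data known. Named sites are all gene-end and shared intervals and the 3 strongest distal ones per gene and library; a few weaker ones are named for completeness. Of other pathway genes, those with a shared gene-end interval and the 3 tallest siNEG-only ones are named, and IGF2R was added after its value was seen. Alternatives were a stricter threshold, wider intervals, lists of equal length, smaller windows, other gene-end distances, other overlap rules and another merging rule.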

Additional observations from a re-analysis of the deposited data

How the results depend on the processing

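No paired analysis was possible because there was 1 library per group and no test. Of 103 alternative values 80 stayed within 1.5 times the reported count or inside its counting interval, and 23 moved. Filters and smaller windows leave fewer intervals by construction. At −log10 q of at least 5 the windows held 16 siNEG intervals and 1 siEWS-FLI interval, 1 of them shared, and 1 siNEG gene-end site in 1 member. Among intervals wider than 200 bases there were 21 with siNEG and 3 with siEWS-FLI. With lists of equal length 8 siNEG intervals were left, 37.5% of all and 37.5% of distal ones shared, and 0 gene-end sites in 0 members. This setting keeps the strongest siNEG intervals, and taller ones were shared more often across the library. The share over the whole shortened list was not measured, so the 37.5% has no background beside it. Within 50 kb there were 20 siNEG and 4 siEWS-FLI intervals, 2 of them shared, and the tallest siNEG site was 8 reads for IRS1 and 9 for IGFBP2 and IGFBP5. With gene ends taken as 5 kb, 6 siNEG sites in 6 members and 1 siEWS-FLI site in 1 member (IGFBP5) counted as gene-end sites. Leaving out the INSR window, a choice made after seeing the data, left 2 shared intervals. No siEWS-FLI interval overlapped a siNEG gene-end site of a member in any setting that kept such a site. Most settings only remove intervals or tighten a rule, so they could not add an overlap. The looser ones, gene ends within 5 kb and a gap of at most 1 kb, added none. The gene-end sites of 7 to 9 reads are at the limit of this depth: the lowest pileup listed was 4 reads in either library.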
